A study of Sus scrofa domesticus with 4 samples.

Results

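Solute carriers (SLC) are membrane proteins that move amino acids, sugars, ions, metals, nucleotides, vitamins and other small molecules across the cell surface or into organelles, in exchange for or together with another solute, or down a gradient. In the uterus of the pig, where the conceptus lives on secretions of the endometrium before and during implantation, these carriers are known for loading the gland secretions and the uterine lumen with glucose, amino acids and minerals. The cationic amino acid carriers of the SLC7 family bring arginine into cells, and most zinc carriers of the SLC30 family move zinc out of the cytosol. The genes described here are those on a porcine Agilent array whose RefSeq accession maps to a pig symbol made of SLC and a number. The array held 80 such genes, read by 162 probes, and 64 of them were kept because 4 or more of the 8 channel readings of a probe (4 arrays with 2 dyes each) were well above background. Each gene is represented by its kept probe of highest mean brightness, and 39 of the 64 were well above background in all 8 readings. SLC9A3R1 and SLC9A3R2 carry the SLC name but are scaffold proteins that regulate an ion exchanger, and are given as their own group.

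The study addressed the effect of orexin A (OXA), a hypothalamic peptide hormone of appetite and wakefulness, on transcripts of the pregnant uterus. Endometrial slices came from 4 mature gilts (Large White x Polish Landrace, 7 to 8 months old) on days 15 to 16 of gestation, with no genetic modification in either group. After 2 h of preincubation the treated slices received OXA at 10 nM, per the treatment label, for 24 h, and control slices stayed in medium alone. The overall design note has 10 µM in place of 10 nM. Each of 4 arrays set RNA of OXA-treated slices against RNA of untreated slices, which makes 4 ratios and no array of controls alone. The labels do not say whether the treated and control RNA of an array share a gilt, so the spread between arrays may hold differences between animals as well as handling. The labels of the single samples give Cy5 as the dye of OXA for arrays 1 and 3, and Cy3 for arrays 2 and 4; all values below follow them. The labelling protocol, worded alike for all samples, puts OXA in Cy5 throughout.

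Array 1 stood apart from the rest. It was the only array of its slide, its scan came 71 days later than the rest, and 31.8% of its probes were well above background in Cy3, against 52.1% to 56.7% on arrays 2 to 4. In Cy5 the share was 62.4% to 74.5%, and no spot was saturated. The tissue label was checked on markers of endometrium: 6 of 9 listed genes were measured, among them ESR1 and PGR, the receptors for oestrogen and progesterone, both well above background in all 8 readings. Slices hold several cell types, so in such bulk samples fewer cells of a type and less RNA per cell cannot be told apart. The number of arrays limits the precision of every value.

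None of the 64 solute carrier genes reached an adjusted p of 0.05 between OXA-treated and control slices (limma's moderated test, Benjamini-Hochberg over 26892 probes), and the lowest adjusted p among them was 0.68. The share called over all probes was 0%, and over the 2404 named genes it was also 0%. A looser rule, an unadjusted p under 0.05 together with a change of 1.2 times or more, was met by 3 of the 64 genes, all lower with OXA: SLC7A2, SLC30A1 and SLC2A4. By the same rule 5.20% of all named genes were lower and 1.29% higher, so 3 of 64 lower and 0 of 64 higher lies near that background. Over all probes, most of which have no gene name here, the shares were 2.34% lower and 4.33% higher. The count of 3 depended on single arrays: it was 0 without array 1, 2 (1 lower, 1 higher) without array 2, 5 (4 lower, 1 higher) without array 3 and 6 (5 lower, 1 higher) without array 4. As shares, 0%, 3.12%, 7.81% and 9.38% of the carriers met the rule in these fits, beside 3.91%, 6.03%, 12.1% and 9.32% of all named genes. Both shares were lowest without array 1. The share of carriers was highest without array 4, and that of named genes without array 3.

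Counted by sign alone, 23 carriers were above control in the fit and 41 below. The median log2 ratio of OXA over control was -0.07, beside -0.05 over all named genes, and the values ran from -0.67 (SLC7A2) to 0.52 (SLC15A1). SLC9A2 and SLC1A3 were above control on 4 of 4 arrays, which is 2 of 64 genes beside 3.49% of named genes and 7.16% of all probes. Both are dim, and SLC9A2 passed the background filter mainly through its OXA readings (3 of 4, with 1 of 4 in control). SLC7A7, SLC38A6, SLC5A5 and SLC30A1 were below control on 4 of 4 arrays, 4 of 64 beside 8.40% of named genes and 5.72% of all probes. Both counts are near the background. The arrays differed from each other: the median over the carriers was -0.26 on array 1, -0.23 on array 2, -0.02 on array 3 and 0.11 on array 4, where all named genes had -0.06, -0.18, 0.007 and 0.02. The carriers of array 1 therefore lay further below 0 than the named genes of that array, and those of array 4 further above. Across the 64 genes the ratios of any pair of arrays correlated weakly, with Pearson's r from -0.12 (arrays 3 and 4) to 0.24 (arrays 1 and 3), given as a description over genes that share dye and depth on each array.

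**Figure D1:**
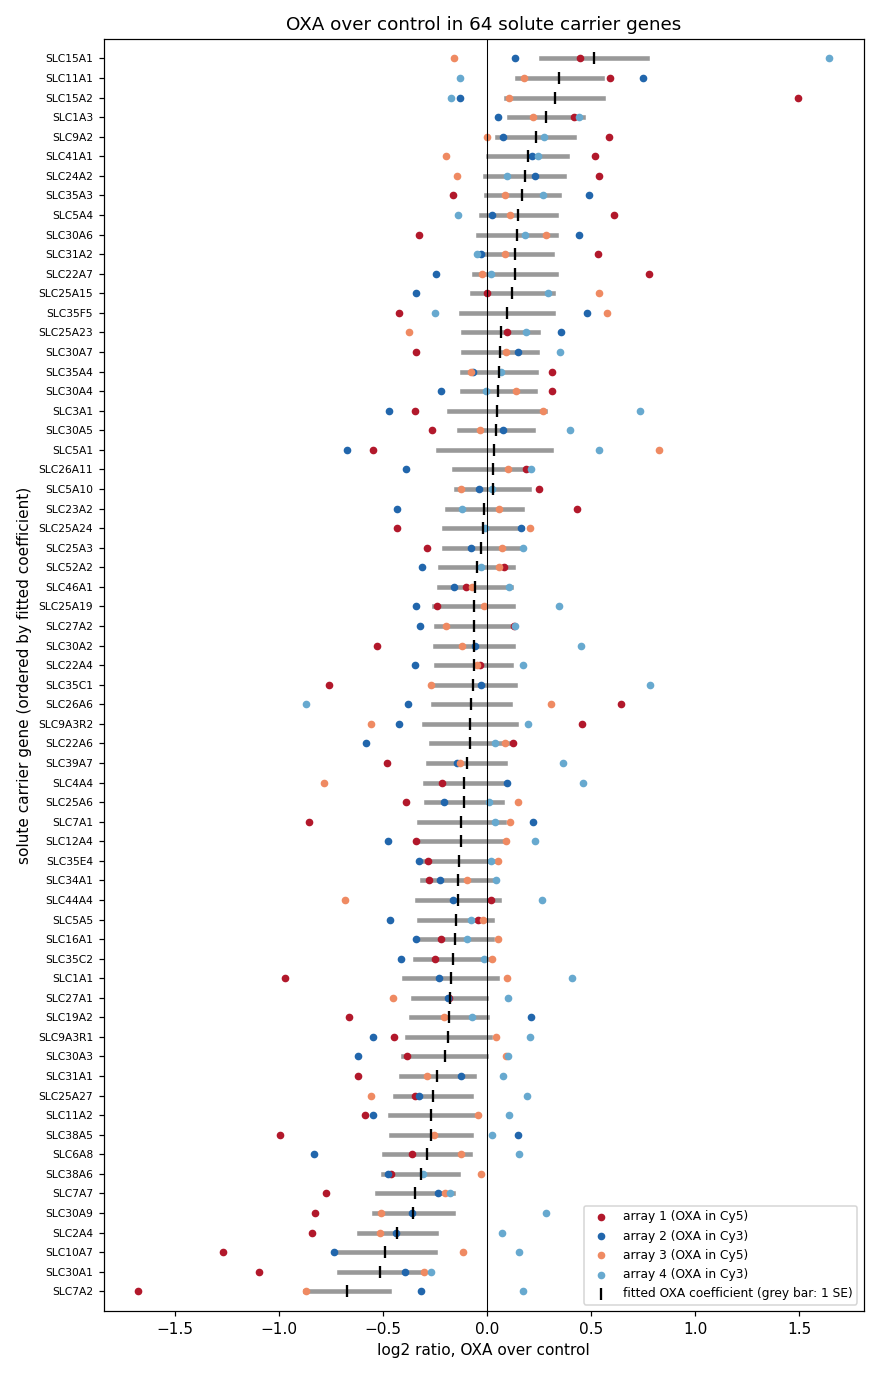
Log2 ratio of OXA over control (x axis) in each of 64 solute carrier genes (y axis, ordered by the fitted coefficient), with 1 point for each of 4 arrays, a black tick for the coefficient and a grey bar of 1 SE to each side. The points of array 1 reach the far left for SLC7A2 (-1.68), SLC10A7 (-1.27) and SLC30A1 (-1.10), and most genes have points on both sides of 0.

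Amino acid and peptide carriers made up 10 of the kept genes and held the extremes in both directions. The lowest value of all 64 belonged to SLC7A2, a carrier of arginine, lysine and ornithine. Its log2 ratio was -1.68 on array 1, -0.32 on array 2, -0.87 on array 3 and 0.17 on array 4. Arrays 1 to 3 therefore lay below control and array 4 slightly above it. The normalized log2 signal of its probe was 12.64, 11.30, 11.22 and 11.80 in control slices and 10.96, 10.98, 10.35 and 11.97 in OXA-treated slices, in array order, so the groups overlapped. The fitted coefficient was -0.67 (SE 0.20, a fold of 0.627), with an unadjusted p of 0.00867 and an adjusted p of 0.68 in limma. The difference was larger with OXA in Cy5 (mean -1.27) than with OXA in Cy3 (mean -0.07), and each dye order holds 2 arrays. Without array 1 the coefficient was -0.47.

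SLC7A7, the light chain that exports cationic amino acids through the basal membrane of epithelia, was the steadiest of the family. Its ratios were -0.78, -0.24, -0.20 and -0.18 on arrays 1 to 4, all below control. The coefficient was -0.35 (SE 0.18; adjusted p 0.68 in limma), and -0.20 without array 1. All 4 kept probes of the gene were on the same side, with the other 3 at -0.27, -0.23 and -0.20. SLC7A1, the main arginine carrier of most cells, had -0.86 on array 1 but 0.22, 0.11 and 0.04 on arrays 2 to 4. Its coefficient of -0.12 (SE 0.21) turned to 0.12 without array 1.

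Among carriers of neutral amino acids, SLC38A5, which takes up glutamine, serine and glycine with sodium, was -0.995 on array 1 and between -0.26 and 0.15 on the others. Its coefficient was -0.27 (SE 0.19), and -0.09 without array 1. SLC38A6, a related and less studied member, was -0.46, -0.47, -0.03 and -0.31 on arrays 1 to 4, with a coefficient of -0.32 (SE 0.18; adjusted p 0.69 in limma). Its other 3 kept probes had -0.14, -0.08 and 0.21, so the probes of this gene did not share a direction. SLC1A1, a glutamate and aspartate carrier of epithelia, was -0.97, -0.23, 0.09 and 0.41, and its coefficient was -0.17 (SE 0.22). Without array 1 the coefficient turned to 0.09, and the gene's other kept probes ran from -0.24 to 0.25. SLC1A3, a glutamate carrier best known from glia, was 0.42, 0.05, 0.22 and 0.44, with a coefficient of 0.28 (SE 0.18; adjusted p 0.71 in limma). The probe for SLC1A3 was dim, well above background in 2 of 4 control and 3 of 4 OXA readings, and the sign turned under median centring (-0.04).

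SLC15A1, with the highest coefficient of all 64, and SLC15A2 carry small peptides and are named here after their values were seen. SLC15A1, the proton-coupled form known from the intestine, was 0.44, 0.14, -0.16 and 1.64 on arrays 1 to 4. Its coefficient of 0.52 (SE 0.25; adjusted p 0.68 in limma) leaned on array 4, where the log2 signal was 6.41 in control and 8.06 in OXA-treated slices. SLC15A2, the peptide carrier of kidney and brain, was 1.49 on array 1 and between -0.18 and 0.11 on the other 3. Both probes were near the limit of detection, with 5 and 4 of 8 readings well above background. The 10 amino acid and peptide carriers had a median of -0.62 on array 1, -0.18 on array 2, 0.03 on array 3 and 0.10 on array 4. SLC3A1, the heavy chain that carries partner light chains to the membrane, completed the group at 0.05 (SE 0.23).

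**Figure D2:**
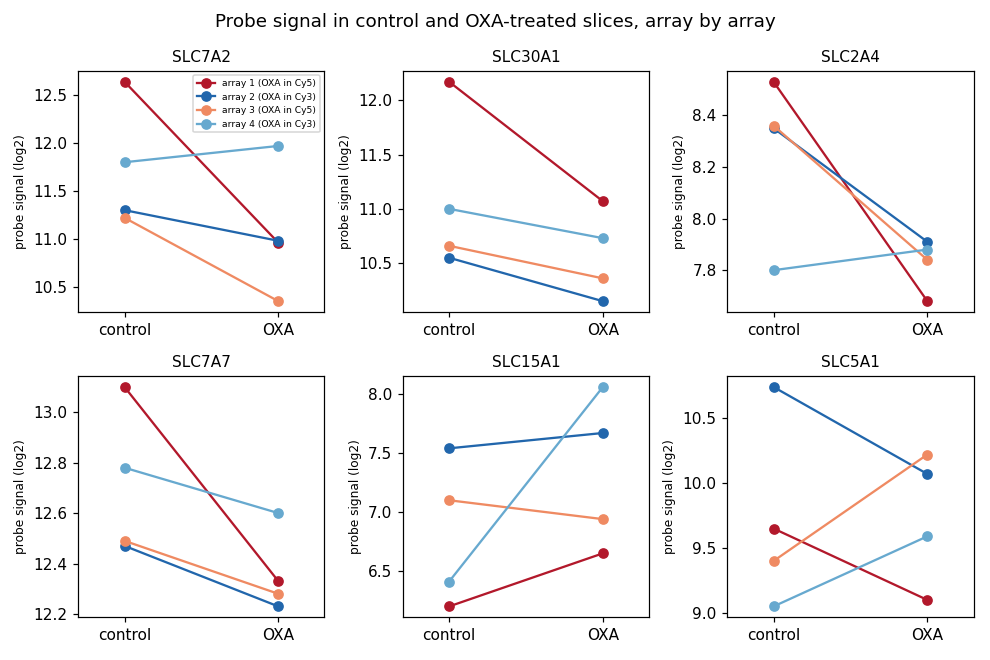
Normalized log2 probe signal (y axis, a scale of its own in each panel) in control and OXA-treated slices for 6 carriers, with 1 line for each of 4 arrays. All 4 lines slope down for SLC7A7 and SLC30A1, 3 of 4 slope down for SLC7A2 and SLC2A4, and the lines of SLC5A1 slope both ways.

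The marker genes of epithelium, the cell layer that holds many of these carriers, also moved between arrays. Of 12 listed epithelial markers 6 were measured (CDH1, CLDN3, CLDN4, CLDN7, EPCAM and KRT8), none of them at 0, and 6 were not named on the array. Their median log2 ratio was -0.93 on array 1, -0.24 on array 2, -0.22 on array 3 and 0.62 on array 4. The log2 of their summed signal ranged from 16.17 to 17.52 in control and from 16.29 to 16.82 in OXA-treated slices. The 3 measured markers of stromal fibroblasts, of 6 listed (COL1A2, DCN and LUM), had a median of 1.39 on array 1 and values of 0.14, -0.25 and 0.15 on the others, with summed log2 signals of 14.43 to 15.84 in control and 14.47 to 16.21 in OXA-treated slices. Array 1 was thus lowest and array 4 highest in the medians of the epithelial markers and the amino acid carriers. The same held for all 64 carriers together (-0.26 and 0.11), and for the metal, mitochondrial and nucleotide sugar groups. It did not hold for the other substrate groups. Of the 6 epithelial markers, CLDN7 and KRT8 were lowest on array 3. Markers of other cells also moved. By median, the myeloid and the T and NK lymphocyte markers were furthest below control on array 4, and the smooth muscle markers on array 2. The myeloid marker CD14 was instead lowest on array 2 (-1.17, with -0.13 on array 4). The 1 measured B lymphocyte marker of 5 listed, CD79A, was lowest on array 1 (-0.76, with -0.41 on array 4). The 4 measured endothelial markers of 6 listed had medians of 0.31, -0.50, -0.53 and -0.46 on arrays 1 to 4. The 4 measured myeloid markers of 7 listed (AIF1, CD14, CD163 and LYZ) had medians of 0.51, -0.39, -0.12 and -1.72 on arrays 1 to 4, with summed log2 signals of 12.49 to 14.01 in control and 12.42 to 13.69 in OXA-treated slices. The 6 measured T and NK lymphocyte markers of 7 listed had 0.08, -0.68, 0.59 and -1.09, with summed log2 signals of 10.93 to 13.53 in control and 11.11 to 13.09 in OXA-treated slices. The 4 measured smooth muscle markers of 7 listed had 0.05, -1.10, 0.29 and -0.38, with 14.25 to 15.13 in control and 13.99 to 14.75 in OXA-treated slices. The part of the cell mixture in the carrier values was not tested.

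Glucose carriers gave 4 kept genes, of 5 on the array. SLC2A4, the insulin-responsive glucose carrier GLUT4, was -0.84, -0.44, -0.52 and 0.07 on arrays 1 to 4. Its log2 signal was 8.53, 8.35, 8.36 and 7.80 in control and 7.68, 7.91, 7.84 and 7.88 in OXA-treated slices, so the lowest control value, on array 4, lay within the OXA values. The coefficient was -0.43 (SE 0.19, a fold of 0.741), with an unadjusted p of 0.0433 and an adjusted p of 0.68 in limma. The gene's other kept probe was at 0.12, and the mean of both probes gave -0.15, a smaller difference than that of the brighter probe by more than 1.5 times.

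SLC5A1, the sodium-glucose carrier SGLT1, split the arrays. It was -0.55 on array 1 and -0.67 on array 2, but 0.83 on array 3 and 0.54 on array 4. The coefficient was 0.03 (SE 0.27), the 4 other kept probes lay between 0.09 and 0.24, and neither dye order nor slide separates those pairs of arrays. SLC5A4, a related sodium-coupled carrier, was 0.61 on array 1 and between -0.14 and 0.11 on the others, with a coefficient of 0.15 (SE 0.18) that was 0.03 without array 1. The remaining glucose gene, SLC5A10, was at 0.03 (SE 0.18). SLC2A2, the liver and islet form GLUT2, was not well above background in any of 8 readings.

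Metal carriers were the largest group, with 14 genes, all of those on the array, 7 higher and 7 lower and a median of -0.01. SLC30A1, which exports zinc through the plasma membrane and is itself induced by zinc, was -1.10, -0.40, -0.30 and -0.27 on arrays 1 to 4. Its log2 signal was 12.17 in control against 11.07 in OXA-treated slices on array 1, 10.55 against 10.15 on array 2 and 10.66 against 10.36 on array 3, and 10.73 in OXA-treated slices on array 4. Each array was lower with OXA, while the groups overlapped. The coefficient was -0.52 (SE 0.19, a fold of 0.699), with an unadjusted p of 0.0257 and an adjusted p of 0.68 in limma, and it was -0.32 without array 1. The other kept probe gave -0.60. With OXA in Cy5 the mean was -0.70 and with OXA in Cy3 -0.33.

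The other 7 zinc carriers of the SLC30 family, known mainly from membranes inside the cell, ran from -0.35 to 0.15. SLC30A7, a Golgi carrier, had -0.34 on array 1, with 0.09 to 0.35 elsewhere, with a coefficient of 0.06 (SE 0.18). SLC39A7, which releases zinc from the endoplasmic reticulum into the cytosol, was the brightest metal carrier probe at -0.10 (SE 0.19), with -0.48 on array 1 and 0.37 on array 4. SLC11A1, a divalent metal carrier of phagocytes named after its values were seen, had the highest value of the group at 0.35 (SE 0.20), with ratios of 0.59, 0.75, 0.18 and -0.13. Its other kept probe was at -0.27, so its direction was not settled by the array. The myeloid markers given above were likewise lowest in median ratio on array 4, though CD14 was not, and their part in this value was not tested. The iron carrier SLC11A2 and the copper carrier SLC31A1 lay at -0.27 and -0.24, each with 1 array above control.

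**Figure D3:**
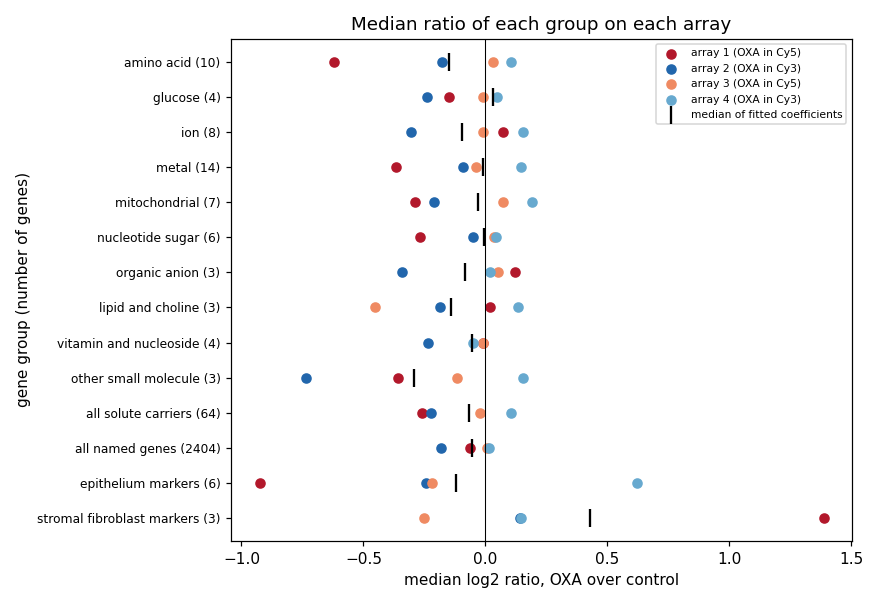
Median log2 ratio of OXA over control (x axis) for each substrate group of carriers, all 64 carriers, all 2404 named genes, and markers of epithelium and stromal fibroblasts (y axis, number of genes in brackets), with 1 point per array and a black tick for the median of the fitted coefficients. From array 1 to array 4 the amino acid carriers run from -0.62 to 0.10 and the epithelial markers from -0.93 to 0.62. All 64 carriers together run from -0.26 to 0.11, and most groups have points on both sides of 0.

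Ion carriers gave 8 kept genes of 13 on the array, with coefficients from -0.15 to 0.23. SLC9A2, an exchanger of sodium and protons, was 0.58, 0.08, 0.001 and 0.27 on arrays 1 to 4, with a coefficient of 0.23 (SE 0.19; adjusted p 0.75 in limma). It was 0.09 without array 1 and 0.64 in Agilent's log ratio. Only 1 of 4 control readings was well above background, so its control level is near the limit of detection. With 3 of 4 OXA readings it just reached the filter, mainly through the group where it was higher. SLC5A5, the sodium-iodide carrier, was -0.04, -0.47, -0.02 and -0.08. Its coefficient of -0.15 (SE 0.18) came mainly from array 2, and was -0.06 without it. SLC4A4, a sodium-bicarbonate carrier, was -0.79 on array 3 and 0.46 on array 4, and SLC12A4, a potassium-chloride carrier, was between -0.48 and 0.23. Their coefficients were -0.11 and -0.12, below their SEs of 0.19 and 0.20. SLC26A6, an anion exchanger named after its values were seen, changed sign with the dye order: it was 0.64 and 0.31 with OXA in Cy5 and -0.38 and -0.87 with OXA in Cy3.

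Mitochondrial carriers of the SLC25 family held the brightest probes of all. SLC25A6, an exchanger of ADP and ATP, had the brightest (mean log2 signal 16.80), and was -0.39, -0.21, 0.15 and 0.008 on arrays 1 to 4, with a coefficient of -0.11 (SE 0.18). All 6 of its kept probes were below 0, from -0.17 to -0.09. SLC25A3, the phosphate carrier, was -0.03 (SE 0.18), and 7 of its 10 kept probes were above 0. The 7 kept mitochondrial carriers ran from -0.26 to 0.12. Probe brightness also reflects how well a probe binds, so the order of brightness is not an order of transcript amounts.

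The 6 kept carriers of nucleotide sugars, the SLC35 family that feeds glycosylation in the Golgi, had a median of -0.005. SLC35C1, the GDP-fucose carrier, was among the most variable, with -0.76 on array 1, -0.03 on array 2, -0.27 on array 3 and 0.78 on array 4, and a coefficient of -0.07 (SE 0.20). Its means were -0.51 with OXA in Cy5 and 0.38 with OXA in Cy3. SLC35C2, a relative of it, was at -0.17 (SE 0.18), with values between -0.42 and 0.03.

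The lipid and choline group held 3 genes, all of those on the array. SLC44A4, a choline-like carrier that also takes up thiamine pyrophosphate, was the third brightest probe of the 64 and was 0.02, -0.16, -0.68 and 0.27 on arrays 1 to 4, with a coefficient of -0.14 (SE 0.20). SLC27A1, which brings in long-chain fatty acids, was -0.18 (SE 0.18). Among vitamin carriers SLC19A2, for thiamine, was -0.66 on array 1 and between -0.21 and 0.21 on the others, with a coefficient of -0.18 (SE 0.18), and -0.07 without array 1. SLC52A2, for riboflavin, was at -0.05 (SE 0.17), with its lowest value, -0.31, on array 2. The 4 kept vitamin carriers were between -0.18 and -0.02.

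SLC16A1, the monocarboxylate carrier of lactate, was -0.22, -0.34, 0.05 and -0.10 on arrays 1 to 4, with a coefficient of -0.15 (SE 0.18). SLC22A6, an organic anion carrier known from kidney, had -0.58 on array 2, with 0.04 to 0.12 elsewhere. Of the carriers of other small molecules, SLC6A8, for creatine, was -0.36, -0.83, -0.13 and 0.15, with a coefficient of -0.29 (SE 0.21), and -0.04 without array 2. SLC22A4, a carrier of ergothioneine and carnitine, was at -0.07 (SE 0.18). SLC10A7, a relative of the bile acid carriers named after its values were seen, was -1.27, -0.73, -0.12 and 0.15, with a coefficient of -0.49 (SE 0.24; adjusted p 0.68 in limma) and -0.20 in its other kept probe. The regulators SLC9A3R1 and SLC9A3R2 were at -0.19 (SE 0.20) and -0.08 (SE 0.22), each above control on 2 of 4 arrays.

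Where a gene had several kept probes, they often disagreed. Of 29 such genes, 14 had all probes on the same side of 0 and 15 had probes on both sides. The same split was not counted over all named genes, so it is not shown to be particular to carriers. Many coefficients also lay close to 0 (median absolute value 0.138), where a small difference turns the sign. Among the 3 genes past the unadjusted rule, SLC30A1 was read alike by both of its probes, SLC2A4 was not, and SLC7A2 had a single kept probe.

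The 16 genes not kept had at most 3 of 8 readings well above background and were left without values. Among them were 4 organic anion carriers (SLC10A2, SLC17A1, SLC22A13 and SLC22A8), the ion carriers SLC26A3, SLC26A4, SLC26A5 and SLC34A2, and the amino acid carriers SLC7A3 and SLC7A9. Those listed with 0 readings were not well above background in this tissue by these probes, which does not show that the transcripts were absent.

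Transport genes whose symbols are not made of SLC and a number gave a similar picture. Of 69 listed genes, among them channels, pumps, aquaporins and receptors, 29 were on the array. Of these 23 were kept, 9 of them higher and 14 lower, with a median of -0.06. They include SLCO2A1, a solute carrier whose symbol has another form. None of the 23 passed the unadjusted rule in either direction, beside 5.20% of all named genes lower and 1.29% higher. With so few genes this lies near that background. The lowest adjusted p among them in limma was 0.69. Of 5 measured regulators of transport, ATF4, a factor that activates amino acid carrier genes when amino acids are scarce, was -0.91, -0.04, -0.46 and -0.15 on arrays 1 to 4, with a coefficient of -0.39 (SE 0.18; adjusted p 0.68 in limma); it was named after its values were seen.

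The size of a carrier's ratio also depended on how the spot background was removed. The median absolute log2 ratio of the 64 genes was 0.138 with the correction used here, 0.112 with none and 0.155 in Agilent's own log ratio. When the correction was fitted with outlier-marked spots included, it was 0.060. In the dimmer 32 genes the median absolute ratio on array 4 was 0.111 with the correction used here and 0.00507 with those spots included. Some of those marked spots had a local background far above the spot. With them in the fit the median corrected Cy5 signal was 1121 to 2530 on arrays 2 to 4, and without them 127 to 192, where the median signal above local background was 149 to 211.5. In Cy3 the same arrays had 621 to 1821 with them and 71 to 79 without them, where the median above local background was 179.5 to 200. The correction used here thus lowered the median signal more in Cy3 than in Cy5. The part of this in the ratios of dim genes was not tested.

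**Figure D4:**
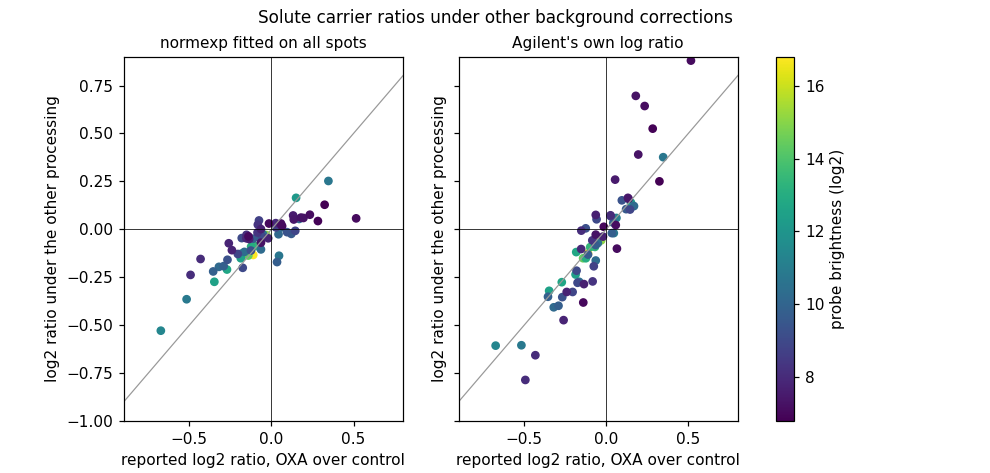
Coefficient of OXA over control (log2) of the 64 carriers as reported (x axis) against the same gene with normexp fitted on all spots (left) and in Agilent's own log ratio (right), coloured by mean log2 brightness of the probe, with the line of equal values in grey. Dim genes lie close to 0 on the left, where the median absolute value is 0.060, and spread beyond the line on the right, where it is 0.155.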

How the data were processed

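Per the file headers, the deposited scanner files were written by Agilent Feature Extraction 10.7.3.1. They give the median intensity of each spot and its local background in both dyes. They also give a deposited log10 ratio (Cy5 to Cy3), already background-subtracted and dye-normalized by that software. The deposited value table holds log2 ratios, which ran as OXA over control when set against the scanner ratios over 43420 probes (slopes of 1.06, -1.00, 1.04 and -1.03); its column medians were -0.17, 0.06, -0.06 and 0.09, and its centring is unknown.

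Background was corrected by normexp (offset 50), arrays by loess, and ratios fitted in limma 3.58.1 (R 4.3.3) with an OXA and a dye coefficient, leaving 2 residual degrees of freedom (9.22 after moderation). Normexp was fitted without spots marked as outliers, a choice made after the data were seen because those spots distorted the fit. Marked spots were left out. On the array of 43603 probes, this lost 170 that had passed the background filter. P-values were adjusted by Benjamini-Hochberg over the 26892 probes kept. They rest on the spread between arrays of the same dye order, which may be technical in part. Moderation draws each probe's spread towards a value pooled over all probes, so a p-value does not measure that probe's own spread alone. Signals by group were also scaled between arrays (Aquantile).

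Gene symbols came from a RefSeq gene list (Sscrofa11.1): 6700 of 7125 probes with an accession were found in it, giving 3029 genes. Members and lists were chosen with earlier results of these data known. Values are given for the 12 brightest members and the 2 brightest of each substrate group. They are also given for those past the unadjusted rule or of 1 sign on 4 arrays, and for carriers known from conceptus nutrition. Of the last set SLC2A1, SLC2A3, SLC2A8, SLC1A4, SLC1A5, SLC7A5, SLC7A8, SLC3A2, SLC38A2 and SLC20A1 had no named probe, and were not measured here. Alternatives changed the dye term, background, normalization, filter, variance model, dye direction, slide, probe choice and arrays. The scripts were tested on simulated data. No sequences are printed.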

Additional observations from a re-analysis of the deposited data

Results flagged for a closer look

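In 6 of 64 carriers (9.38%), 1 array stood apart from the other 3 by Dixon's criterion (the gap to the nearest array over the whole range). Over all 2404 named genes this was so in 108 (4.49%), chance flags about 1 in 20 groups, and the carriers share the same 4 arrays. Array 1 stood low for SLC7A1 (-0.859), SLC7A7 (-0.775) and SLC30A1 (-1.099), and high for the dim SLC15A2 (1.493), all log2 ratios of OXA over control. Array 2 stood low for SLC22A6 (-0.583) and SLC5A5 (-0.467). Array 1 is also the array on another slide with the fewest Cy3 probes well above background and the lowest epithelial marker ratio, and the part of each in these values was not tested.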

How the results depend on the processing

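The count of 0 carriers at an adjusted p under 0.05 held in all 15 distinct alternatives (the 3 arrays of the shared slide are those left without array 1), while 16 named genes passed without array 2 and 13 without array 4; the median over the carriers lay between -0.19 (without array 4) and 0.03 (without array 2). The looser count of 3 was 0 on the 3 arrays of the shared slide, 0 with normexp fitted on all spots (added after the data were seen) and 1 (SLC26A6) with OXA read as Cy5 on every array; it ran from 0 to 6 as each array was left out. SLC7A2, SLC30A1, SLC2A4 and SLC7A7 kept their sign in 15 of 15 alternatives, with ranges of -0.88 to -0.47, -0.72 to -0.18, -0.66 to -0.15 and -0.49 to -0.14. Such sign counts are not independent support. Changing the dye term, the filter or the variance model left the coefficients of named carriers as they were. Agilent's log ratio and the deposited value table gave the same values as each other. These 4 genes were also named for low values on the same arrays. Of 31 named carriers 9 kept their sign in every alternative run and 22 turned in at least 1, among them 10 with OXA read as Cy5 throughout, 9 without array 2, 5 without array 1 and 4 under median centring. Among those whose coefficient exceeded its SE, the sign turned for SLC1A3 under median centring (-0.044), where the cause was not tested. With OXA read as Cy5 throughout, signs turned for SLC38A6 (0.073) and SLC6A8 (0.048). That setting turns the ratios of arrays 2 and 4 round, so its value is the dye coefficient of the main fit. Over named genes the looser count was 156, 59 with normexp on all spots, 94 without array 1 and 292 without array 3. Dim carriers such as SLC15A1, SLC15A2, SLC1A3 and SLC9A2 are limited by signal over background.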

Other observations

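Of the other transport genes, the lowest unadjusted p-values in limma belonged to CD36, a fatty acid receptor (-0.53, SE 0.30; 0.55, -0.11, -1.06 and -1.49 on arrays 1 to 4, where the myeloid markers had medians of 0.51, -0.39, -0.12 and -1.72, a part not tested), S100G, a calcium-binding protein of epithelia (0.55, SE 0.33; 0.90, -0.17, -0.36 and 1.85), KCNMA1, a potassium channel (0.29, SE 0.18), and TFRC, the transferrin receptor (-0.31, SE 0.20). None had 1 sign on 4 of 4 arrays, and their adjusted p-values in limma were 0.69 to 0.72. CFTR, a chloride channel chosen after its values were seen, followed the dye order: -1.48 and -1.06 with OXA in Cy5, 0.44 and 1.27 with OXA in Cy3.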
